A study of Mus musculus with 10 samples.

Results

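The Myc network is a family of basic helix-loop-helix leucine zipper transcription factors, described here with Pvt1, the noncoding RNA gene that lies next to Myc. It was followed in stem cell-enriched bone marrow cells of 5 Mll-deficient and 5 control samples, titled as biological replicates, with 1 array for each sample. All probe sets annotated to 1 of 10 symbols alone were taken: Myc and Mycn, their dimer partner Max and its relative Mlx, the antagonists Mxd1, Mxd3, Mxd4, Mxi1 and Mnt, and Pvt1. They came to 26 of the 45037 probe sets that are not array controls. The genes were proposed with differences between these groups already known, so they were chosen by the Mll-deficient minus control values of this same contrast, and the differences of the members are a description without a test of their own. Where a member is said to have passed or missed the threshold of the fit over all probe sets or genes, that describes values already used to choose it and supports nothing.

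The Mll-deficient mice carried Mx1-cre;Mll F/F, that is, Mll alleles flanked by loxP sites (F/F) and a cre transgene driven by the interferon-responsive Mx1 promoter. The control mice were Mll F/F without cre. All were 8-week-old females on a B6.SJL-Ptprca Pep3b/BoyJ background, and both groups received 3 injections of the interferon inducer pI:pC, 48 hours apart, each of 10 µg for every gram a mouse weighed with 50 µg added. LSK/CD48- cells (lineage-negative, Sca-1-positive, Kit-positive cells that lack CD48) were sorted on day 6, and RNA of 1500 to 10000 cells was amplified. Cre was present in 1 group only, and the Mx1 promoter also responds in cell types other than stem cells, so the effects of cre, of Mll loss in the sorted cells and of Mll loss elsewhere cannot be told apart.

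As background, Myc pairs with Max and binds the E-box CACGTG in promoters, where it raises transcription of genes for ribosome building, nucleotide synthesis and growth. The Mxd proteins, Mxi1 and Mnt pair with Max too, bind the same E-box and recruit Sin3 and histone deacetylases to lower transcription, so the level of each limits the others. In blood stem cells Myc is kept low during quiescence and rises on the way to division and differentiation, and Myc and Mycn share functions there.

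Sequence is shown here because the E-box is the element for which Myc and its antagonists compete. Promoters were those of RefSeq (GRCm38.p6), each with 250 bases before and 50 bases after the gene's start, and they were present for 8 of the 10 members, all except Myc and Pvt1. The letters CACGTG, which read the same on both strands, were found in the promoters of Max, Mlx, Mxd4 and Mnt, and not in these windows of Mycn, Mxd1, Mxd3 and Mxi1. That of Max lay too close to or past the gene's start to be shown. The stretches below carry the E-box in capitals, for 3 members and for 3 Myc-induced genes that were higher in Mll-deficient cells (Cdk4, a G1 kinase, Nme1, a nucleotide kinase, and Nop2, a nucleolar methyltransferase), and all lie before the gene's start. They were chosen after the values were seen.
Mlx, chr11:101087230-101087275, plus strand: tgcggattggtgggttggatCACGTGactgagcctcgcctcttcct
Mxd4, chr5:34187904-34187949, minus strand: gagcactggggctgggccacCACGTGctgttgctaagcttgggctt
Mnt, chr11:74830781-74830826, plus strand: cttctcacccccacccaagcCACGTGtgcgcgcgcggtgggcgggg
Cdk4, chr10:127063343-127063388, plus strand: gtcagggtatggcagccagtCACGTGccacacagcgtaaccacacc
Nme1, chr11:93968029-93968074, minus strand: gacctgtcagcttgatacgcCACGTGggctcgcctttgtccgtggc
Nop2, chr6:125131803-125131848, plus strand: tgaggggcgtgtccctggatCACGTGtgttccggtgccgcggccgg
The Cdk4 promoter held 4 such motifs, of which 1 stands in capitals here. The motif stood in the promoters of 8.09% of the 27025 genes in the RefSeq table and of 11.6% of the 10196 tested genes found there. Finding the letters does not show that a factor is bound.

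The authors had scaled all 10 arrays to 1 mean, after which the arrays' medians ran from 18.1 to 28.9 arbitrary units of signal. Control replicate 5 had the lowest mean correlation with its group, at 0.938. It also had the highest log2 ratio of 3' to middle control probe sets, at 5.24. Such a ratio can mark shorter RNA, and the part of the RNA amplification in it was not tested. Within the Mll-deficient group, replicate 5 had the lowest such correlation, at 0.957, and the highest such ratio, at 3.87. Such ratios averaged 3.16 ± 0.60 in Mll-deficient and 2.97 ± 1.42 in control samples (SD, n = 5 each; exact permutation test, two-sided, p = 0.810). Neither Kmt2a probe set (Kmt2a encodes Mll) passed the limma test, with log2 differences of -0.38 ± 0.35 and -0.55 ± 0.31 (SE; adjusted p = 0.736 and 0.498 with no filter), and where they lie relative to the deleted part was not analysed here. Kit, by which the cells were sorted, read 27.7 to 94.1 units in Mll-deficient samples and 101 to 181 units in controls on its brighter probe set. Its limma adjusted p was 0.132 in the fit over genes and 0.249 with no filter. The stem cell marker Slamf1 read 48.0 to 65.3 units in Mll-deficient samples and 51.8 to 145 units in controls on its brightest (limma adjusted p = 0.139 over genes, 0.276 with no filter). Cd48, whose protein the sort excludes, read 68.7 to 172 units in Mll-deficient and 44.1 to 197 units in control samples, and no Ly6a probe set with a single symbol was found.

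Values below are linear signals in arbitrary units, and differences are Mll-deficient minus control on the log2(signal + 16) scale, which understates the change of dim probe sets. The model was limma's linear fit over the 27022 probe sets, or the 12580 genes by their brightest probe set, whose mean exceeded the 40th percentile of all probe sets. A probe set or gene passed at a Benjamini-Hochberg adjusted p under 0.05. Of the 26 member probe sets, 19 passed the filter and 7 were too dim. Levels of different probe sets are not set against each other. In bulk samples fewer cells of a type and less RNA per cell cannot be told apart.

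Myc itself was higher in Mll-deficient cells. Its only probe set, 1424942_a_at, read 802, 623, 619.6, 664 and 959 units in Mll-deficient replicates 1 to 5, against 299.6, 433, 484, 556 and 331 units in control replicates 1 to 5. Every Mll-deficient array lay above every control array. It averaged 734 ± 146 units in Mll-deficient and 421 ± 106 units in control samples (SD, n = 5 each). On the log2 scale this was 0.79 ± 0.23 (SE, 95% interval 0.32 to 1.27). Myc passed the threshold over genes but not over probe sets. Over genes the call did not hold with median centring, with no filter, with no intensity trend or with the replicate number as a block. When single arrays were dropped it held only without control replicate 4 and was gone in the other 9 fits.

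Mycn, the relative that can stand in for Myc, was lower in Mll-deficient cells on average. Its brightest probe set, 1417155_at, read 278, 406, 128, 182 and 168 units in Mll-deficient arrays, against 391, 384, 729.8, 519 and 218 units in controls. Mll-deficient replicate 2 was above 3 of the controls, and the groups overlapped. The difference was -0.91 ± 0.32 (SE, 95% interval -1.59 to -0.23) and did not pass, except without control replicate 5, where it was -1.13. The other pair of Mycn probe sets was below the filter, with no array above 31.9 units.

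**Figure D1:**
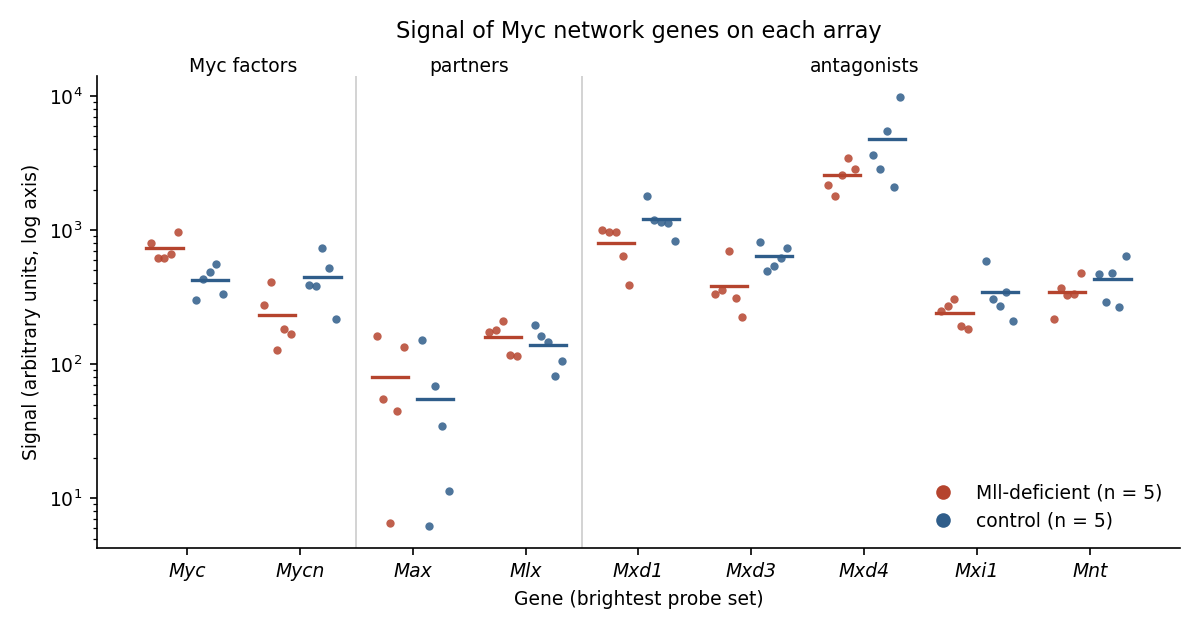
Signal in arbitrary units (log axis) of the brightest probe set of each network gene on each of the 5 Mll-deficient arrays (left, red) and 5 control arrays (right, blue); bars are means. The groups separate for Myc, at 619.6 to 959 in Mll-deficient against 299.6 to 556 units in control arrays, and overlap for the other 8 genes.

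Of the partners, Max was measured less precisely than Mlx. Max, the obligate partner of Myc and of the antagonists, had 1 probe set (1423501_at), which read 161, 54.8, 6.58, 44.9 and 134 units in Mll-deficient arrays and 152, 6.17, 68.6, 34.8 and 11.2 units in control arrays. Both groups spanned this whole range, and the interval of the difference of 0.51 ± 0.55 (SE, 95% interval -0.64 to 1.66) held 0. Mlx, which pairs with the glucose-sensing Mondo proteins and with some antagonists, read 115 to 209 units in Mll-deficient and 82.0 to 197 units in control arrays on its brighter probe set (0.20 ± 0.26, 95% interval -0.34 to 0.74). The dimmer Mlx probe set was at -0.15 ± 0.27.

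The antagonists lay on the other side of 0 from Myc. All 11 of their tested probe sets had a difference below 0, with a median of -0.48 and a range of -0.79 to -0.20, where 57.1% of all tested probe sets were below 0 and the median of all was -0.07. Of these 11, 0 passed limma's adjusted threshold and 5 had an unadjusted p under 0.05, where 18.3% of all tested probe sets did. Among all 19 tested member probe sets, 1 passed and was higher, where 3.28% of all tested probe sets passed and 2.12% passed as higher. Nothing is read from these shares, since the members were chosen with this contrast known. The 3 antagonist probe sets below the filter were at -0.04 (Mxd1), 0.09 (Mxi1) and 0.23 (Mnt), with no array above 31.4 units.

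Mxd3, an antagonist found in dividing progenitors in S phase, had 3 tested probe sets, at -0.79 ± 0.27, -0.78 ± 0.30 and -0.48 ± 0.25 (SE). The brightest, 1438847_at, read 331, 356, 703, 310.2 and 225 units in Mll-deficient arrays, against 820.4, 495, 544, 618 and 729.5 units in controls. Mll-deficient replicate 3 reached into the control range, while the other 4 Mll-deficient arrays lay below every control. Without that array the difference was -1.03 and passed.

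Mxd1, linked to cell cycle exit and differentiation, read 1004, 961, 973, 644 and 388 units in Mll-deficient arrays and 1791, 1194, 1148, 1124 and 833 units in control arrays on 1434830_at. Of the Mll-deficient arrays, 2 lay below the lowest control and 3 above it. The difference was -0.65 ± 0.27 (SE, 95% interval -1.22 to -0.07), and the second tested probe set, 1455104_at, was at -0.59 ± 0.25, with 3 Mll-deficient arrays, at 51.7, 61.9 and 63.99 units, below the lowest control at 103 units. Both were below 0 and neither passed.

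Mxd4, the broadly expressed family member, had a large control spread. Its brightest probe set, 1434378_a_at, read 2174, 1786, 2589.7, 3426 and 2852 units in Mll-deficient arrays, against 3604, 2842, 5449.8, 2077 and 9773 units in controls. Control replicate 5 was the highest of all 10 arrays and was also the array with the highest 3' to middle ratio. The difference of -0.70 ± 0.33 (SE, 95% interval -1.39 to -0.01) was -0.39 without that array. The other 3 Mxd4 probe sets were at -0.20 ± 0.25, -0.27 ± 0.27 and -0.22 ± 0.29.

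Mxi1 read 184 to 303 units in Mll-deficient arrays (median 249.9) and 211 to 587 units in control arrays (median 307), a difference of -0.43 ± 0.26 (SE, 95% interval -0.98 to 0.12). Mnt, which opposes Myc in resting and in growing cells, read 216 to 477 units in Mll-deficient arrays (median 331) and 267 to 635 units in control arrays (median 470.1), a difference of -0.28 ± 0.27 (95% interval -0.84 to 0.29). For both genes the groups overlapped and the interval held 0.

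**Figure D2:**
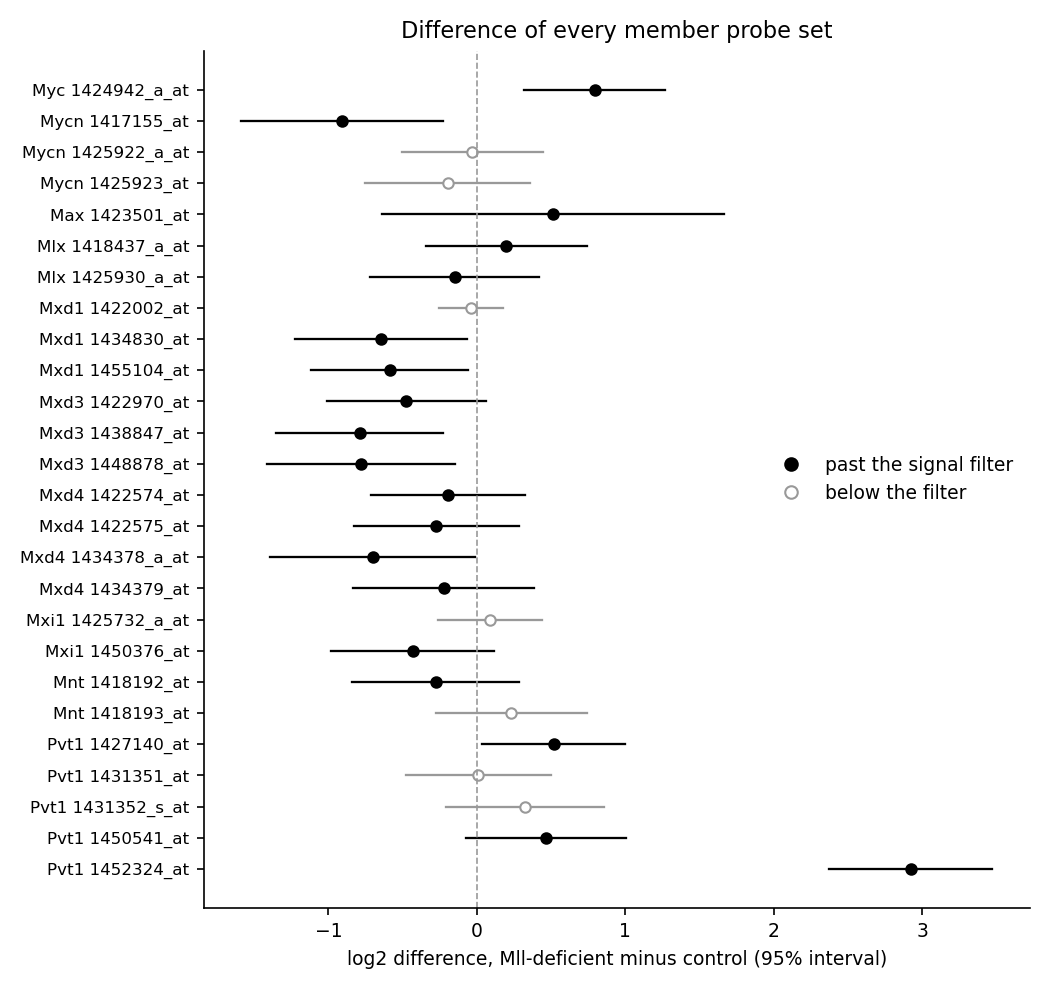
Log2 difference (Mll-deficient minus control, x axis) of each of the 26 member probe sets with its 95% interval from the linear model; filled points passed the signal filter and open grey points did not. Pvt1 1452324_at stands far to the right at 2.92, Myc lies at 0.79, and all 11 filled antagonist points lie left of 0.

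The balance between Myc and its antagonists was also followed within arrays, as the log2 ratio of Myc to the brightest probe set of each. The ratio has no meaning as a level, since it sets probe sets against each other, but its change between groups does not depend on how an array was scaled, apart from the offset. Myc over Mxd1 was 1.44 higher in Mll-deficient arrays, at -0.64 to 1.27 in these and -2.52 to -0.99 in controls. Myc over Mxi1 was 1.22 higher, at 0.99 to 2.29 in Mll-deficient arrays and -0.93 to 0.81 in controls. For these 2 ratios, and for Myc over Mycn (1.70 higher), the groups did not overlap, a direction that the choice of members already favours. Myc alone also separated the groups, and how often its ratio to other probe sets would do so was not computed. Nothing is read from this separation. Myc over Mxd3, Mxd4 and Mnt was 1.58, 1.497 and 1.07 higher, with overlapping groups.

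Pvt1 showed the largest difference of all members, and it did so on 1 of its 5 probe sets. Pvt1 encodes a long noncoding RNA, and in human cancers it is often gained together with MYC. Probe set 1452324_at read 407, 310.3, 386, 479 and 763 units in Mll-deficient arrays, against 46.9, 43.3, 43.3, 27.9 and 71.9 units in controls. The lowest Mll-deficient array was above the highest control by a wide margin. It averaged 469 ± 175 units in Mll-deficient and 46.7 ± 15.9 units in control samples (SD, n = 5 each), a ratio of 10.1. The log2 difference was 2.92 ± 0.26 (SE, 95% interval 2.37 to 3.47). It stayed past the threshold in every alternative run, with differences from 2.23 to 3.29 over those that kept all arrays and from 2.73 to 3.05 when any 1 array was left out. Of the 19 tested member probe sets, 2 had groups that did not overlap, this one and that of Myc, where 5.68% of all tested probe sets did so.

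The other Pvt1 probe sets had smaller differences. Probe set 1427140_at read 35.0, 35.2, 40.7, 41.8 and 43.4 units in Mll-deficient arrays and 17.3, 23.8, 11.97, 23.4 and 41.8 units in control arrays. Here 1 control (replicate 5) reached the Mll-deficient range, and the difference was 0.52 ± 0.23 (SE, 95% interval 0.035 to 1.0004). Probe set 1450541_at read 43.7 to 100.2 units in Mll-deficient and 23.8 to 63.0 units in control arrays (0.46 ± 0.26, 95% interval -0.08 to 1.005). The remaining pair, 1431351_at and 1431352_s_at, was below the filter, at 0.01 ± 0.23 and 0.32 ± 0.25, with no array above 24.9 units. All 5 were above 0, and only 1452324_at passed. Which exons or isoforms each probe set reads was not analysed here.

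**Figure D3:**
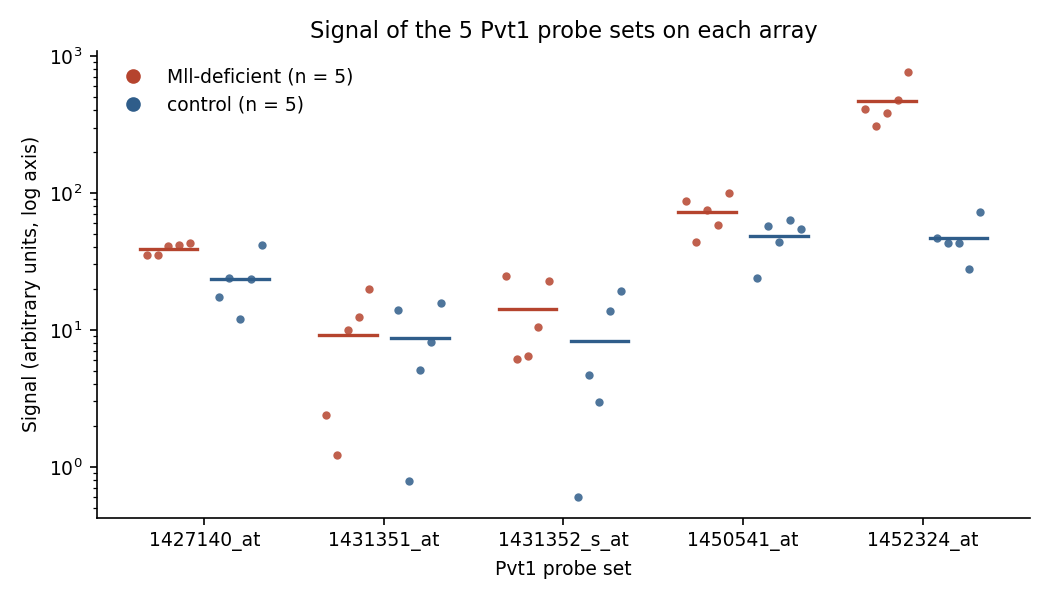
Signal in arbitrary units (log axis) of the 5 Pvt1 probe sets on each Mll-deficient array (left, red) and control array (right, blue); bars are means. Only 1452324_at separates the groups, at 310.3 to 763 units in Mll-deficient against 27.9 to 71.9 units in control arrays.

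Genes around Myc and Pvt1 were examined as the 10 nearest tested genes on each side of Myc in RefSeq order, with Pvt1 left out. Of these 20 neighbours, 0 passed limma's adjusted threshold and 5 had an unadjusted p under 0.05, where 20.7% of all tested genes did. Their median difference was 0.07, against -0.04 for all tested genes. The neighbours with the smallest p were Cyrib, a Rac1-binding protein gene (-0.61 ± 0.19, SE, adjusted p = 0.0795), and Tmem71 (-0.79 ± 0.26, adjusted p = 0.0939), both lower in Mll-deficient cells and both beyond Pvt1 as seen from Myc. Myc and Pvt1 lay at 0.79 and 2.92 among them.

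The downstream side of the pathway showed the broadest pattern. Its gene lists were chosen with earlier results of these data known, so the shares below are a description and support nothing by themselves. Of 88 tested Myc-induced genes, a list recalled from textbook targets and from a published Myc target signature, 36 rose in Mll-deficient cells, 0 fell and 52 did not pass. That is 40.9% of the list, where 5.52% of all tested genes passed and 3.76% passed as higher. Their median difference was 0.78, against -0.04 for all tested genes, and 81 of the 88 were above 0, where 46.6% of all tested genes were. The groups did not overlap, with Mll-deficient arrays higher, for 32 of the 88 and for 4.42% of all tested genes. Leaving out Mll-deficient replicate 5 or control replicate 1 left 20 past the threshold, all higher.

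The largest rises of the list were Hspe1, the mitochondrial co-chaperonin, Srm, the spermidine synthase, and Nolc1, a nucleolar phosphoprotein. Hspe1 averaged 625 ± 242 units in Mll-deficient and 166 ± 23.7 units in control samples (SD, n = 5 each), a difference of 1.75 ± 0.25 (SE, limma adjusted p = 7.93e-04). Srm averaged 8558 ± 1517 units in Mll-deficient and 3089 ± 1224 units in control samples, a difference of 1.55 ± 0.26 (adjusted p = 0.00294). Nolc1 rose by 1.52 ± 0.24 (adjusted p = 0.00186). Slc7a5, an amino acid transporter, rose by 1.41 ± 0.24 (adjusted p = 0.00290), Cad, the enzyme that starts pyrimidine synthesis, by 1.38 ± 0.23 (adjusted p = 0.00270), and Shmt2, a mitochondrial serine enzyme, by 1.27 ± 0.23 (adjusted p = 0.00496). All 6 passed in every alternative run.

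The rises were also counted by role, in groups made after the values were seen. Of 37 genes of the nucleolus and ribosome building 18 rose (median 0.87), among them Bysl, Nop56, Ddx21 and Fbl, a rRNA methyltransferase, while Npm1, nucleophosmin (0.60 ± 0.19, adjusted p = 0.0720), and Ncl, nucleolin (1.02 ± 0.30, adjusted p = 0.0543), did not pass. Of 16 genes of nucleotide, polyamine, one-carbon and glucose metabolism and transport 9 rose (median 1.09), including Odc1, ornithine decarboxylase (1.24 ± 0.17, adjusted p = 7.93e-04). Of 10 mitochondrial genes 7 rose (median 0.92). Of 14 genes of the cell cycle and DNA 2 rose, Cdk4 and Rcc1 (median 0.25). The 11 tested genes placed in none of these groups, among them Eif4e, Eif4a1 and Farsa, all missed the threshold and are left out of these counts. Across all tested genes 5.52% passed and 3.76% passed as higher. Whether the roles differed was not tested. Names in this paragraph were chosen after their values were seen.

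**Figure D4:**
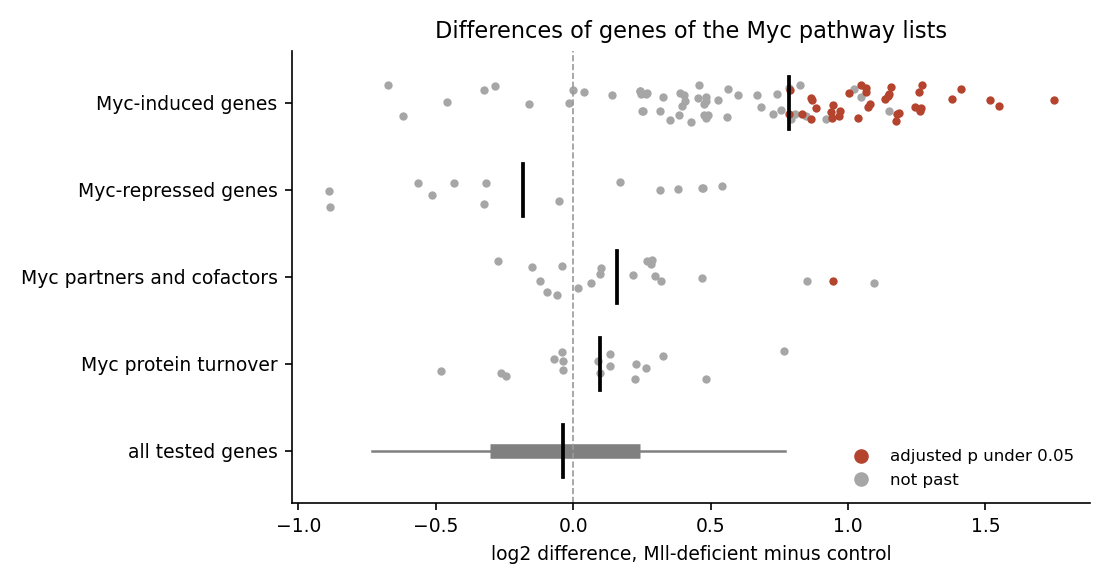
Log2 difference (Mll-deficient minus control, x axis) of each tested gene of 4 lists, red where the adjusted p was under 0.05; black bars are medians, and for all 12580 tested genes the thick bar spans the quartiles and the thin line the 5th to 95th percentiles. The Myc-induced genes centre on 0.78, while the medians of the other lists lie between -0.18 and 0.16.

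E-boxes were counted beside the rises. Of the 76 Myc-induced genes with a promoter in the table, 19 held CACGTG, where 11.6% of all tested genes did. The motif stood in 7 of the 31 that rose with a promoter there (22.6%) and in 12 of the 45 that did not pass (26.7%). Among all tested genes that were higher past the threshold, 17.6% of 387 held it. These shares are descriptions of letters in 300-base windows, without a test.

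Genes that Myc is known to repress gave no calls. Of 14 tested, including the cell cycle inhibitors and the adhesion genes linked to stem cell niches, 0 passed limma's adjusted threshold and 5 had an unadjusted p under 0.05 (20.7% of all tested genes did). These 5 did not share a direction. The median was -0.18, but 0.03 over 16 genes with no filter. Ndrg1, a stress-induced differentiation gene that also lies among the neighbours of Myc, was at -0.56 ± 0.19 (SE, adjusted p = 0.0994), and Cdkn1b, the cyclin-dependent kinase inhibitor p27, at -0.88 ± 0.30 (adjusted p = 0.0995). On the other side of 0, and named after their values were seen, were Fth1, the ferritin heavy chain (0.47 ± 0.18, adjusted p = 0.137), and Ddit3, a stress response factor (0.54 ± 0.22, adjusted p = 0.177).

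Genes whose products bind the network proteins or set the stability of Myc were called about as often as all genes, or not at all. Of 20 tested partners and cofactors of Myc, Max, Mlx or the antagonists, 1 rose, 0 fell and 19 did not pass, with a median of 0.16. The gene that rose was Kat2a, the Gcn5 acetyltransferase (0.95 ± 0.26, SE, adjusted p = 0.0437). Across all tested genes 5.52% passed. Of the 20, 3 had an unadjusted p under 0.05, Kat2a and the paired ATPase genes Ruvbl2 (1.095 ± 0.31, adjusted p = 0.0519) and Ruvbl1 (0.85 ± 0.25, adjusted p = 0.0567), named after their values were seen. With 1 array dropped Kat2a passed only without Mll-deficient replicate 2 or control replicate 2, and it did not pass under 5 of the 11 alternatives that kept all arrays. Of 17 tested genes that set the stability of the Myc protein, 0 passed and 1 had an unadjusted p under 0.05 (median 0.10). Those with the smallest p were the ubiquitin ligase genes Huwe1 (0.77 ± 0.25, adjusted p = 0.0848) and Stub1 (0.48 ± 0.31, adjusted p = 0.403), and Huwe1 was at -0.046 when all its probe sets were averaged.

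Per array, the mean log2 signal of the 88 Myc-induced genes was 9.79 to 9.89 in Mll-deficient arrays, a narrow range, and 8.99 to 9.33 in control arrays. Mll-deficient replicate 5 had the highest Myc, the highest Pvt1 and the highest mean of these genes of all 10 arrays. It also had the highest 3' to middle ratio of the Mll-deficient group, at 3.87. Among controls, replicate 1 had the lowest Myc and the lowest mean of these genes, while replicate 4 had the highest Myc and the lowest Pvt1 signal on 1452324_at. After the group means were removed, r over the 10 arrays was 0.71 between Myc and the mean of these genes, -0.11 between Pvt1 and that mean and 0.03 between Myc and Pvt1. These are descriptions of arrays that share their scaling. With 5 arrays in each group, and with the groups apart, no correlation was tested.

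**Figure D5:**
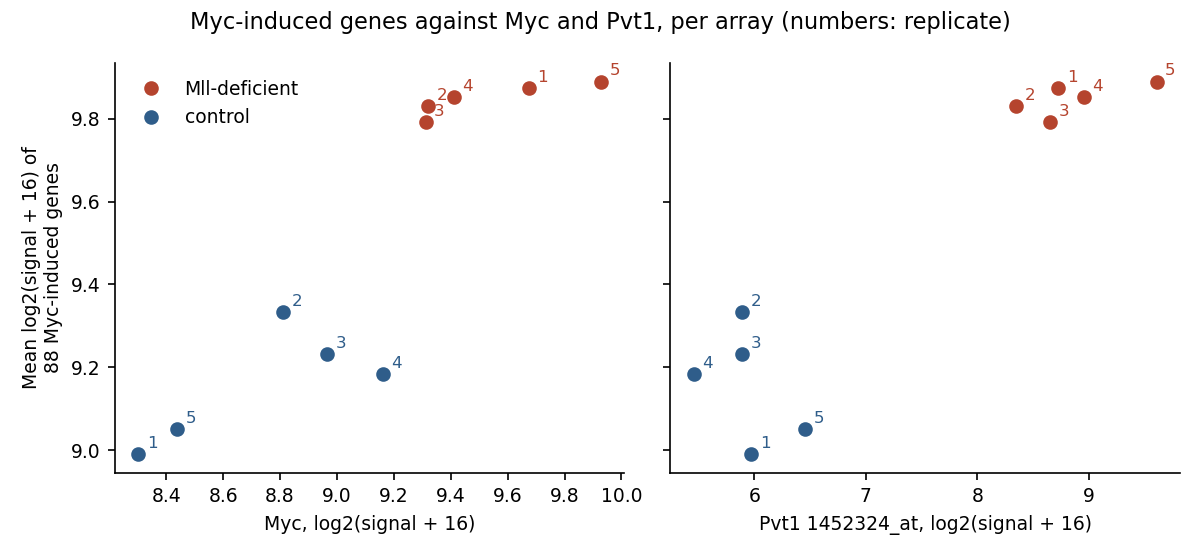
Mean log2(signal + 16) of the 88 tested Myc-induced genes on each array (y axis) against the log2(signal + 16) of Myc (left) and of Pvt1 1452324_at (right); red points are Mll-deficient and blue points control arrays, numbered by replicate. The groups are apart on all 3 measures, with the gene mean at 9.79 to 9.89 in Mll-deficient and 8.99 to 9.33 in control arrays.

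The genes most like Myc over the 10 arrays, of 12579 ranked by Pearson r of log2 values, were Psma7, a proteasome subunit gene (r = 0.970), Ranbp1, a regulator of nuclear transport (r = 0.967), Tmem184c (r = 0.961), Gpr180 (r = 0.959) and Ciapin1, an iron-sulfur assembly factor gene (r = 0.955). After the group means were removed their r with Myc stayed between 0.893 and 0.953. Ranbp1 rose by 1.19 ± 0.21 (SE, adjusted p = 0.00389) and Ciapin1 by 0.68 ± 0.18 (adjusted p = 0.0384), and the other 3 did not pass. Ciapin1 missed the threshold in 8 of the 10 fits with an array dropped and under 4 of the 11 alternatives that kept all arrays, at 0.27 with its probe sets averaged. Those most like Pvt1 1452324_at were Cyth3, an Arf exchange factor gene (r = 0.989), Nme1 (r = 0.979), Glrx5, a mitochondrial iron-sulfur protein gene (r = 0.978), Ttll12 (r = 0.978) and Usp10, a deubiquitinase gene (r = 0.978), which all rose. Their r was between 0.645 and 0.810 once group means were removed. These are the highest of many correlations and share the arrays, the scaling and the group difference.

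Other cell type markers moved with the same groups. For comparison with the counts here, 5.52% of all tested genes passed the adjusted threshold and 3.76% passed as higher. Of 18 tested erythroid markers 13 rose, and those with the smallest p were Klf1 (3.00 ± 0.27, SE, adjusted p = 2.52e-05), Ermap (3.40 ± 0.48, adjusted p = 7.93e-04) and Fech, the last enzyme of haem synthesis (1.57 ± 0.24, adjusted p = 0.00158). Their summed signal was 19669 to 22524 units in Mll-deficient arrays and 4729 to 9829 units in control arrays. Of 8 tested stem cell markers 2 fell, Mecom (-2.83 ± 0.38, adjusted p = 6.58e-04) and Hlf (-1.48 ± 0.40, adjusted p = 0.0384), and Procr was at -1.08 ± 0.35 (adjusted p = 0.0863). Mecom was at -0.93 (adjusted p = 0.0103) when its probe sets were averaged, and Hlf missed the threshold in 7 of the 10 fits with an array dropped, with median centring and with no filter. The summed signal of the stem cell list was 613 to 1935 units in Mll-deficient arrays and 1534 to 4950 units in controls. Differences were above 0 for 18 of the 18 erythroid and 0 of the 8 stem cell markers, where 46.6% of all tested genes were. Tfrc, which is counted here as Myc-induced, is also abundant in erythroid cells. The part of these cell types in the differences of Myc, Pvt1 and the Myc-induced genes was not tested.

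Of 13 tested myeloid markers 0 passed limma's adjusted threshold, where 5.52% of all tested genes passed. An unadjusted p under 0.05 was found for 5 of the 13, where 20.7% of all tested genes had one. Of 9 lymphoid markers 0 passed and 1 had such a p, and of 7 megakaryocyte markers 0 passed and 2 had one. Their summed signals overlapped, at 96884 to 160058 units in Mll-deficient and 85902 to 139935 units in control arrays for the myeloid list, 2048 to 6045 units in Mll-deficient and 1544 to 7120 units in control arrays for the lymphoid list, and 1725 to 3209 units in Mll-deficient and 2160 to 5456 units in control arrays for the megakaryocyte list. The markers with the smallest p were Itgam (-0.73 ± 0.26, adjusted p = 0.119), Prtn3 (0.68 ± 0.28, adjusted p = 0.177) and Ms4a3 (0.67 ± 0.28, adjusted p = 0.183) among the myeloid genes. In the lymphoid list they were Nkg7 (0.96 ± 0.28, adjusted p = 0.0583), Ebf1 (-0.86 ± 0.51, adjusted p = 0.369) and Klrd1 (0.73 ± 0.45, adjusted p = 0.387). In the megakaryocyte list they were Gp1bb (-0.84 ± 0.37, adjusted p = 0.207), Vwf (-1.08 ± 0.48, adjusted p = 0.210) and Itgb3 (-0.48 ± 0.23, adjusted p = 0.264). Differences were above 0 for 10 of the 13 myeloid, 5 of the 9 lymphoid and 0 of the 7 megakaryocyte markers. Among all tested genes 46.6% were above 0. The neutrophil genes S100a8 and S100a9, chosen after their values were seen, averaged 25895 and 24073 units in Mll-deficient and 23795 and 21627 units in control samples. No tested marker of these lists was at 0 on any array.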

How the data were processed

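Per the labels, RNA of sorted cells in 10 samples was hybridised to Affymetrix Mouse Genome 430 2.0 arrays, and the groups were taken from the sample titles. The deposited values are linear signal intensities made by the authors with MAS5 5.0, per the submitters' processing notes. With 2% of probe sets trimmed at each end, the mean was 150.001 on every array, so each was scaled to 1 constant, which removes differences in total RNA. No detection calls were used, and precision is limited by how many arrays there are. p-values measure the spread between the samples titled as biological replicates.

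The table held 45101 probe sets, 64 of them controls. A platform table paired 34958 with 1 symbol and 932 with several, which named no gene, and 9211 were unnamed here. Entrez identifiers of 34754 were found in RefSeq (GRCm38.p6) and their symbols updated. Signals were taken as log2(signal + 16) and fitted with limma 3.58.1 in R 4.3.3 (lmFit, eBayes with an intensity trend, two-sided) over 27022 probe sets and 12580 genes. Each adjusted p in the text is from the limma fit over genes with Benjamini-Hochberg adjustment, unless another setting is named beside it. Members and lists were chosen with earlier results of these data known. Named genes were all members, the genes past the threshold in each pathway list if at most 6, otherwise the 6 largest rises and falls, the 2 with the smallest p where none passed, the 3 with the smallest p of each marker list, the sort genes and the 5 most alike. The lists lost members without a single-symbol probe set (7 of 95 Myc-induced genes) or below the filter (2 of 16 Myc-repressed genes).

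Both fits were tested on simulated data with known changes, and a probe set or gene that did not pass may still differ. Alternatives covered the offset, normalization, filter, variance prior, array weights, averaged probe sets, a replicate block, an RNA quality covariate and each array left out. Over tested probe sets, deviations of same-numbered arrays had r of 0.05, 0.11, -0.12, -0.18 and 0.24 for replicates 1 to 5. These did not share a direction, and no pairing was used in the main fit. Replicate 5, at 0.24, also had the highest 3' to middle ratio in both groups. Whether same-numbered arrays were processed together was not tested.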

Additional observations from a re-analysis of the deposited data

Results flagged for a closer look

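In 4 of the groups of 5 values examined 1 array stood apart by Dixon's criterion, which marks about 5% of groups by chance, and 122 groups were examined. None was a member probe set. Kit read 27.7 units in Mll-deficient replicate 3, where the other Mll-deficient arrays read 72.4 to 94.1 units. Ttll12 read 752 units in Mll-deficient replicate 2, against 922 to 975 units in the others. Ebf1 read 58.3 units in control replicate 2, against 336 to 524 units in the other controls. Itgb3 read 444 units in control replicate 5, against 712 to 818 units in the other controls.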

How the results depend on the processing

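Every tested member probe set kept its direction under all alternatives that gave it a value, and the call of Pvt1 1452324_at was never lost. Of 27022 probe sets 887 passed, with 588 under no filter and 2433 with the RNA quality covariate, and of 12580 genes 694 passed, with 1610 under that covariate. Member probe sets past the threshold numbered 1, but 2 with the 60th percentile filter (Myc added) and 3 with the covariate (Myc and Mxd4 added). The 36 Myc-induced genes ranged from 29 to 38 under the other alternatives that kept all arrays and were 52, of which 51 were higher, with the covariate. The 1 cofactor became 0 with median centring, no filter, no intensity trend and averaged probe sets, 2 with offset 64, quantile normalization and array weights, 2 others without Kat2a with the replicate block, and 3 with the 60th percentile filter and the covariate. From 0, turnover genes became 2 with the covariate, repressed genes 3 with the covariate and 1 with quantile normalization, and neighbours 4 with the covariate, 3 with array weights, 2 with averaged probe sets and 1 with quantile normalization. The cause was not tested. With 1 array left out the counts were 308 to 1129 probe sets, 317 to 875 genes, 1 to 2 member probe sets, 20 to 41 Myc-induced genes, 0 to 3 cofactors, 0 to 1 turnover genes, 0 to 1 repressed genes and 0 to 3 neighbours, and the difference in the RNA ratio was -0.12 to 0.755. Huwe1 reversed to -0.046 with averaged probe sets. With the replicate number as a block 781 probe sets, 588 genes and 32 Myc-induced genes passed. Of the called genes 81.5% were higher with median centring, against 68.2% without it. Precision is limited by the 5 arrays in each group, and 7 of the 26 member probe sets were too dim to test.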
